A study of Mus musculus with 12 samples.

Results

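The genes described here are 10 cytokines that macrophages can make after exposure to lipopolysaccharide (LPS), an outer membrane component of Gram-negative bacteria. They are tumour necrosis factor (Tnf), interleukin-6 (Il6) and its relatives leukaemia inhibitory factor (Lif), oncostatin M (Osm) and the interleukin-27 subunit Il27, together with Il10, the interleukin-12 subunit Il12b, and the colony-stimulating factors Csf1, Csf2 and Csf3. They were taken by symbol, and all 10 were found among the 49585 genes of the deposited table. RNA was sequenced from RAW264.7 cells, a macrophage-like line from a male mouse tumour, in 12 libraries. Every library came from cells stimulated with LPS at 10 ng/mL together with mouse interferon-γ (IFN-γ), also at 10 ng/mL. For 6 libraries the cells also received 50 µM Mdivi-1, which inhibits Drp1, the GTPase that divides mitochondria, from the same moment as the stimulus. RNA was taken after 24 h or 96 h, which gives 4 groups of 3 libraries. No unstimulated cells were analysed here, so induction by LPS itself was not measured. All libraries come from 1 cell line, and the labels do not say that the 3 libraries of a group were separate cultures, so each p-value measures only the spread between these libraries.

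Tnf signals through receptors of the TNF receptor superfamily and drives inflammatory gene expression through NF-κB. Il6, Lif, Osm and interleukin-27 use receptor complexes that hold the shared chain gp130 (Il6st) and signal through Jak kinases and Stat factors. Csf1, Csf2 and Csf3 control the survival and growth of macrophages and granulocytes, and the messengers of several of these cytokines are short-lived because of AU-rich elements in their 3′ untranslated regions.

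Values are given as TPM, a share of all transcripts corrected for their length, so they can be set side by side between genes within a library. Both 24 h libraries numbered 3, one with and one without Mdivi-1, stood apart: mitochondrial RNA made up 95.2% and 96.0% of their TPM, against 5.20% to 6.68% in the other 4 libraries of 24 h. In them the 10 cytokines were at 0 to 0.626 TPM, none above the background described next, and both were left out of the tests unless stated. At 96 h mitochondrial RNA made up 58.6% to 80.8% and satellite-like transcripts 7.35% to 24.0%. The third 96 h library without Mdivi-1 held the most of the first and the least of the second. Of 10 macrophage markers 9 were analysed here, and at 24 h all 9 were above background, with Adgre1, which encodes F4/80 and is named here after its values were seen, at 1027 to 1110 TPM. At 96 h Adgre1 was at 1.73 to 6.17 TPM, and 4 (without Mdivi-1) and 5 (with Mdivi-1) of the 9 markers remained above background. The 10 markers of T, B, natural killer, mast cells and neutrophils summed to at most 0.401 TPM at 24 h. At 96 h they summed to 2.57 to 14.4 TPM, with none of them above background.

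The background was set by the 1419 olfactory receptor (Olfr) genes, which were taken as silent in macrophages. In the 24 h libraries numbered 1 and 2 the 95th percentile of the Olfr genes was 0 TPM. There 1352 to 1361 of them were at 0, though the highest single Olfr gene was at 3.77 to 5.76 TPM. The libraries of 96 h had 95th percentiles of 7.01, 5.56 and 1.31 TPM where Mdivi-1 was absent and of 3.06, 3.73 and 4.59 TPM where it was present. A level of a few TPM therefore separated a cytokine from a silent gene at 24 h but not at 96 h. Counted as above this percentile in every library of a group, 9 of the 10 cytokines were above background at 24 h without Mdivi-1 and 8 with it. At 96 h 3 were above it without Mdivi-1 (Tnf, Il27 and Csf3) and 5 with it (Il6 and Lif in addition). Without the first 96 h library lacking Mdivi-1, Lif joined the 3, which made 4. At 24 h any value above 0 TPM counted as above background. With the 99th percentile in place of the 95th, the 24 h counts were 8 without Mdivi-1 (Csf3 dropped out) and 7 with it (Il6 dropped out). The 96 h counts stayed at 3 and 5. The share of all genes above these cuts was not counted. The plot of the 10 cytokines by library shows these levels.

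**Figure D1:**
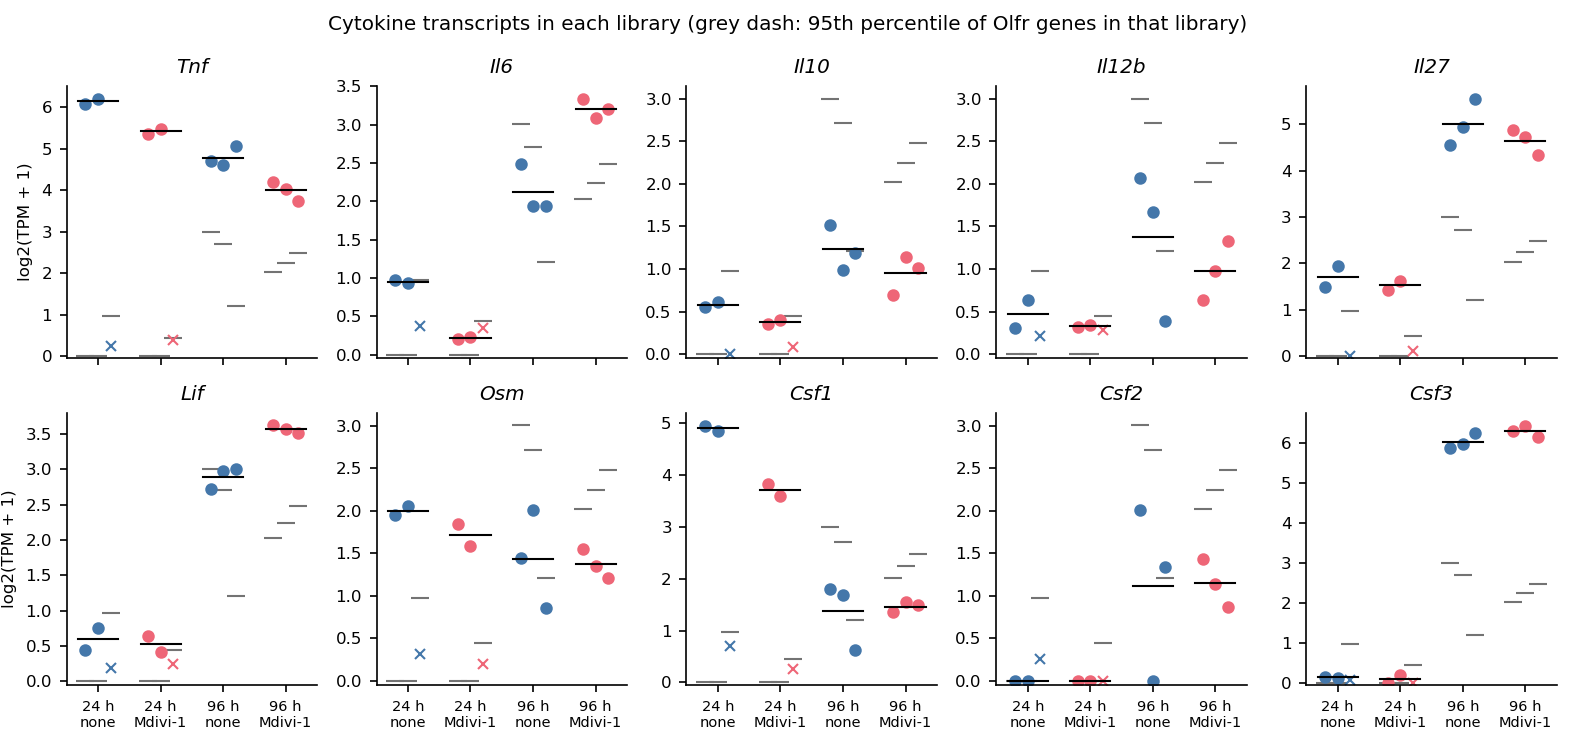
Level of each of the 10 cytokines in all 12 libraries, as log2(TPM + 1), by group, with the mean of the log2 values as a black line and the 24 h libraries numbered 3 as crosses outside that mean. Csf3 rises from 0 to 0.150 TPM at 24 h to 57.7 to 86.2 TPM at 96 h, while Csf1 goes from 11.2 to 30.1 TPM to 0.552 to 2.48 TPM.

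Tnf, the cytokine that gives its name to the TNF family, was the most abundant of the 10 at 24 h. It stood at 66.3 and 72.3 TPM without Mdivi-1 and at 39.9 and 43.3 TPM with it. After 96 h the levels were 24.9, 23.1 and 32.4 TPM without Mdivi-1 and 17.5, 15.3 and 12.3 TPM with it. Within each time every library with Mdivi-1 was below every library without it. The same held for 40.4% of all genes tested at 24 h and for 4.05% at 96 h. In the 24 h libraries numbered 3 Tnf was at 0.192 and 0.306 TPM, below their Olfr 95th percentiles. These are bulk samples, in which fewer cells of a type and less RNA per cell cannot be told apart. The window around the Tnf start site, from 250 bases before it to 50 bases into the transcript, is shown because Tnf is the reference for the ratios given further on. It lies on chr17:35201958-35202257, minus strand, GRCm38.p6, and the sequence is from RefSeq. Capitals mark the TATA box match TATAAA, whose first base is 29 bases before the start site.
Tnf: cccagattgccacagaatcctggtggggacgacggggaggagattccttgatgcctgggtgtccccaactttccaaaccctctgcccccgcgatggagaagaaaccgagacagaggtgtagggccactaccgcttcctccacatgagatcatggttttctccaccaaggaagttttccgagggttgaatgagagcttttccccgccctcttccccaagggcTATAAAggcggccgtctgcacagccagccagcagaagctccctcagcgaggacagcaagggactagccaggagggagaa
No NF-κB consensus match was present in this window. TATAAA, on either strand, occurred in 13.6% of the 32851 RefSeq promoter windows of the same length, and the NF-κB consensus in 4.51%.

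With Mdivi-1 the Tnf difference was -0.72 ± 0.18 (SE) on the log2(TPM + 1) scale at 24 h (95% interval -1.13 to -0.32) and -0.79 ± 0.15 at 96 h (-1.12 to -0.46). Neither passed the test, with limma p-values adjusted by Benjamini-Hochberg of 0.184 and 0.102. Under 3 other scalings (median-of-ratios, rescaling without mitochondrial, structured and satellite-like RNA, and the latter with the Olfr median subtracted) the 24 h difference was smaller, at -0.37 (-1.30 to 0.56), -0.54 (-1.34 to 0.26) and -0.54 (-1.09 to 0.0032), with 0 inside each interval. The 96 h difference was -0.73, -0.76 and -0.88 under them. The spread in this test was shared by 10 libraries at both times. With the 4 libraries of 24 h fitted alone the same difference passed (adjusted p = 5.14e-04). The share of all genes that passed in that fit is not given here. Over the alternative fits 0 to 2424 of all genes passed at 24 h, against 58 in the fit of 10 libraries. The 96 h difference passed without the third 96 h library lacking Mdivi-1 (-0.65, adjusted p = 0.0458). Without that library the median 96 h difference of all genes was -0.32, against -0.06 in the fit of 10 libraries. Fits with 1 library left out called 4 to 806 of all genes at 96 h, against 28.

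Il6, a mediator of fever and of the liver's acute phase response, had the opposite order at the 2 times. At 24 h it stood at 0.955 and 0.903 TPM without Mdivi-1 and at 0.152 and 0.175 TPM with it. The 96 h levels were 4.60, 2.84 and 2.84 TPM without Mdivi-1 and 9.10, 7.46 and 8.19 TPM with it. The groups did not overlap at either time: libraries with Mdivi-1 were the low ones at 24 h and the high ones at 96 h. Of all genes tested, 40.4% were lower in this sense at 24 h and 2.13% higher at 96 h. All 3 of the 96 h libraries with Mdivi-1 were above the Olfr 95th percentile, and of those without it only the third was, so in the other 2 libraries Il6 could not be told from a silent gene. The Il6 window, chr5:30012864-30013163, plus strand, GRCm38.p6, is shown for comparison with Tnf, and capitals mark its NF-κB consensus match, whose first base is 44 bases before the start site.
Il6: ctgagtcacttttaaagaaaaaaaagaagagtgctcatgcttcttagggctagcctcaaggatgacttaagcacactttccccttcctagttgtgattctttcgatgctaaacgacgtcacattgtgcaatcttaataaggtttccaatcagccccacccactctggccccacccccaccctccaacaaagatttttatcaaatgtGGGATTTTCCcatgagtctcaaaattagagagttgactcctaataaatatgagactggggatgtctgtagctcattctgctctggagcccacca
The same window held the AP-1 motif TGANTCA at 249 bases before the start site and the C/EBP motif TTNNGNAA at 128 bases before it. These motifs were present, on either strand, in 7.81% and 40.7% of all windows, and a match of letters does not show a bound site.

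The Il6 difference with Mdivi-1 was -0.73 ± 0.25 on the log2 scale at 24 h (95% interval -1.28 to -0.18) and 1.08 ± 0.20 at 96 h (0.63 to 1.53). The limma adjusted p-values were 0.489 and 0.101. The difference between these effects, tested as an interaction, was 1.81 ± 0.32 (1.10 to 2.53), with an adjusted p of 0.0977. None of the 3 passed, nor did they under the other 3 scalings, where 0% of all genes passed at 24 h. There the 24 h difference was -0.35 with median-of-ratios scaling (-0.92 to 0.22) and -1.08 with either rescaling. The 96 h difference was 1.23, 1.34 and 2.24 (adjusted p = 0.0887, 0.103 and 0.128), and the interaction 1.58, 2.42 and 3.32 (adjusted p = 0.476, 0.230 and 0.228). In TPM, at 96 h Il6 passed without the first 96 h library lacking Mdivi-1 (1.26, adjusted p = 0.0298) and without the third (0.99, adjusted p = 0.0317). The interaction passed without the same libraries, at 1.99 (adjusted p = 0.0243) and 1.72 (adjusted p = 0.0452). Over all fits with 1 library left out, 4 to 806 of all genes passed at 96 h and 0 to 84 in the interaction. The Il6 interaction also passed with a pseudocount of 0.1 (3.24, adjusted p = 0.0331) and of 5 (0.86, adjusted p = 0.0490) in place of 1. These libraries differ in background: the Olfr median was 2.88 TPM in the first, 2.21 in the second and 0.511 in the third of the 96 h libraries without Mdivi-1. It was 1.32, 1.42 and 1.94 TPM in those with it.

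Lif, a gp130 cytokine first known for arresting the growth of a mouse leukaemia line, stood at 0.355 and 0.693 TPM at 24 h without Mdivi-1 and at 0.564 and 0.341 TPM with it. By 96 h the libraries without Mdivi-1 held 5.58, 6.83 and 7.01 TPM and those with it 11.3, 10.9 and 10.4 TPM. The groups overlapped at 24 h and did not at 96 h, where every library with Mdivi-1 was the higher. The 96 h difference was 0.67 ± 0.17 on the log2 scale (0.29 to 1.05) and did not pass (limma adjusted p = 0.310). It passed without the third 96 h library lacking Mdivi-1 (0.72, adjusted p = 0.0442), where the median of all genes was -0.32. Fits with 1 library left out called 4 to 806 of all genes at 96 h. Under the other 3 scalings the Lif difference was 0.77, 0.81 and 1.10 and did not pass. The Lif window, chr11:4257318-4257617, plus strand, GRCm38.p6, is printed beside that of Il6 because both genes were higher in every 96 h library with Mdivi-1. It has no capitals, since it held neither an NF-κB consensus nor TATAAA.
Lif: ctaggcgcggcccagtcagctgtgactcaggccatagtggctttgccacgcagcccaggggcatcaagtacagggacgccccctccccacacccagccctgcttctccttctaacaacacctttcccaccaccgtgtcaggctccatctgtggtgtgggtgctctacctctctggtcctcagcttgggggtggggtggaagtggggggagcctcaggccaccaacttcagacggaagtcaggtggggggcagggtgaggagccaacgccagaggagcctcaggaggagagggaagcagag
An AP-1 motif began 228 bases before the start site, and the C/EBP motif was not found in this window. CRE (TGACGTCA) and the Stat motif TTCNNNGAA, present in 1.79% and 8.3% of all windows, were found in neither the Lif nor the Il6 window.

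Osm, which shares gp130 with Lif, stood at 2.86 and 3.14 TPM at 24 h without Mdivi-1 and at 2.59 and 2.01 TPM with it. Its 96 h levels were 0.810 to 3.03 TPM in all 6 libraries, and none of the 6 exceeded the Olfr 95th percentile. The level at 96 h could thus not be told from that of a silent gene. Its difference with Mdivi-1 was -0.28 ± 0.35 at 24 h and -0.07 ± 0.29 at 96 h on the log2 scale (limma adjusted p = 1 at both).

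Il27 encodes the p28 subunit of interleukin-27, which pairs with Ebi3 to limit T cell responses. It stood at 1.82 and 2.82 TPM at 24 h without Mdivi-1 and at 1.68 and 2.08 TPM with it. After 96 h Il27 stood at 22.4, 29.5 and 45.8 TPM without Mdivi-1 and at 28.6, 25.5 and 19.2 TPM with it. The groups overlapped at both times, and all 10 libraries were above the Olfr 95th percentile. The differences with Mdivi-1 were -0.19 ± 0.30 at 24 h (-0.86 to 0.48) and -0.36 ± 0.25 at 96 h (-0.91 to 0.19), each with a limma adjusted p of 1. Its partner Ebi3 was lower at 96 h where Il27 was higher: it was at 47.6 ± 5.63 TPM (SD, n = 2) and 39.0 ± 0.718 TPM (n = 2) at 24 h, and at 4.30 ± 1.61 TPM (n = 3) and 4.61 ± 0.240 TPM (n = 3) at 96 h, without and with Mdivi-1. At 96 h Ebi3 was above background only in the group with Mdivi-1. Its change over time passed in TPM (-3.24 and -2.83) and with median-of-ratios scaling (-1.41 and -1.28, limma adjusted p = 0.0117 and 0.0171). With rescaling it passed without Mdivi-1 (-1.15, adjusted p = 0.0211) and not with it (-0.83, adjusted p = 0.0747). With the Olfr median subtracted it did not pass (-1.76, adjusted p = 0.149, and -0.69, adjusted p = 0.545).

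Il10, an anti-inflammatory cytokine, stood at 0.472 and 0.523 TPM at 24 h without Mdivi-1 and at 0.281 and 0.324 TPM with it. Il12b, the p40 subunit shared by interleukin-12 and interleukin-23, stood at 0.236 and 0.557 TPM without Mdivi-1 and at 0.250 and 0.269 TPM with it. Both were above the Olfr 95th percentile at 24 h and below it in all 6 of the 96 h libraries, where Il10 was at 0.625 to 1.85 TPM and Il12b at 0.312 to 3.21 TPM. Il10 was under the filter of a mean of 1 TPM and was not tested with the others. Il12b did not pass in any contrast (-0.14 ± 0.56 at 24 h and -0.40 ± 0.46 at 96 h with Mdivi-1, limma adjusted p = 1). Il12a, the partner of Il12b in interleukin-12, had group means of 0.156 to 0.650 TPM.

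Csf1, the growth factor of macrophages, was the second most abundant of the 10 cytokines at 24 h. It stood at 30.1 and 27.7 TPM without Mdivi-1 and at 13.2 and 11.2 TPM with it. After 96 h Csf1 was at 2.48, 2.20 and 0.552 TPM without Mdivi-1 and at 1.55, 1.93 and 1.82 TPM with it, below the Olfr 95th percentile in all 6 libraries. The groups did not overlap at 24 h, where the libraries with Mdivi-1 were the low ones, and overlapped at 96 h. Of all genes tested, 40.4% were lower in this sense at 24 h. The Csf1 window, chr3:107760420-107760719, minus strand, GRCm38.p6, is shown because it and the Il6 window were the only windows of the 6 cytokines looked up that held an NF-κB consensus match. Capitals mark it, with its first base 154 bases before the start site.
Csf1: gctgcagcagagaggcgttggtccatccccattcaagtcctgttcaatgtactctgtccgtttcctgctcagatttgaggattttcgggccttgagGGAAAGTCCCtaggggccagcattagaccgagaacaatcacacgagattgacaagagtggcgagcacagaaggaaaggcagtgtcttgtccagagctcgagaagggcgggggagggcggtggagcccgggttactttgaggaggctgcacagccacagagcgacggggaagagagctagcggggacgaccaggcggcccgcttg
The windows of Il12b and Csf2 were searched too and held no NF-κB consensus and no TATAAA.

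The Csf1 difference with Mdivi-1 was -1.19 ± 0.33 on the log2 scale at 24 h (-1.92 to -0.45), which did not pass (limma adjusted p = 0.267), and 0.09 ± 0.27 at 96 h (-0.50 to 0.69). The 24 h difference passed with the 4 libraries of 24 h fitted alone (adjusted p = 1.28e-04), with a pseudocount of 5 (-0.98, adjusted p = 0.00919) and without the third 96 h library lacking Mdivi-1 (adjusted p = 0.00832). The share of all genes that passed is not given for each of these fits. Over the alternatives 0 to 2424 of all genes passed at 24 h, and 0 to 356 with 1 library left out. Fibroblast markers moved in the same direction at 24 h. Of 9 such markers 5 were tested and 3 fell with Mdivi-1: the collagen genes Col1a1 (-2.67 ± 0.29, adjusted p = 0.00932), Col1a2 (-1.90 ± 0.29, adjusted p = 0.0314) and Col3a1 (-2.54 ± 0.35, adjusted p = 0.0198). None of the 3 passed under the other 3 scalings described with the change over time, where they lay at -2.65 to -1.50. Under each of those scalings 0% of all genes passed at 24 h, so this is no result about the 3 genes. The 9 markers, all above background at 24 h, summed to 263 to 287 TPM without Mdivi-1 and to 54.7 to 75.1 TPM with it. At 96 h the sums were 2.66 to 12.04 TPM and 6.01 to 7.73 TPM, with none of the 9 above background. The Mdivi-1 effect on Col1a1 differed between the times (2.58 ± 0.38, adjusted p = 0.0357), though not under those scalings (2.25 to 2.52). The part of these markers in the Csf1 and Tnf differences was not tested.

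Csf2, the granulocyte-macrophage colony-stimulating factor, was listed at 0 in all 4 of the 24 h libraries. Its 96 h levels were 3.04, 0 and 1.53 TPM without Mdivi-1 and 1.70, 1.19 and 0.829 TPM with it, and exceeded the Olfr 95th percentile in 1 of the 6 libraries. It was under the filter and not tested with the others. Csf3, the granulocyte colony-stimulating factor, stood at 0.109 and 0.0970 TPM at 24 h without Mdivi-1, and at 0 and 0.150 TPM with it. At 96 h it was the most abundant of the 10, at 57.7, 62.5 and 75.2 TPM without Mdivi-1 and at 78.9, 86.2 and 70.4 TPM with it. No Olfr gene reached its level in any 96 h library, and the groups with and without Mdivi-1 overlapped. The 96 h difference was 0.27 ± 0.13 on the log2 scale (-0.03 to 0.56, limma adjusted p = 0.962).

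Over the 10 cytokines, 8 were tested for the effect of Mdivi-1, and 0 passed at 24 h, 0 at 96 h and 0 in the difference between the times. Over all 19631 genes tested with limma, 58 passed at 24 h, which is 0.295%, all lower. At 96 h 28 passed (0.143%) and in the difference 24 passed (0.122%). A count of 0 among 8 genes is thus what these shares would give. With all 12 libraries in the fit 0 of 7 tested cytokines passed in each of the 3, and the 24 h differences were -0.44 ± 2.13 for Tnf, -0.49 ± 0.66 for Il6 and -0.94 ± 1.19 for Csf1 (limma adjusted p = 1). With the replicate number as a block in that fit the errors were 0.22, 0.22 and 0.27, and again 0 of 7 passed (adjusted p = 0.998 for each of these at 24 h). At an unadjusted p under 0.05 in the fit of 10 libraries there were 1205, 1117 and 868 genes, among them Tnf, Il6 and Csf1 at 24 h, Tnf, Il6 and Lif at 96 h, and Il6, Lif and Csf1 in the difference. At 24 h 5 of the 10 cytokines (Tnf, Il6, Il10, Osm and Csf1) were lower in both libraries with Mdivi-1 than in both without. Among all tested genes 40.4% were lower in this sense and 2.94% higher, so this count is close to the background. At 96 h Il6 and Lif were higher in all 3 libraries with Mdivi-1 and Tnf lower, against 2.13% and 4.05% of all genes. The median difference of the 8 was -0.24 at 24 h and 0.01 at 96 h, against -0.06 at both times over all genes.

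**Figure D2:**
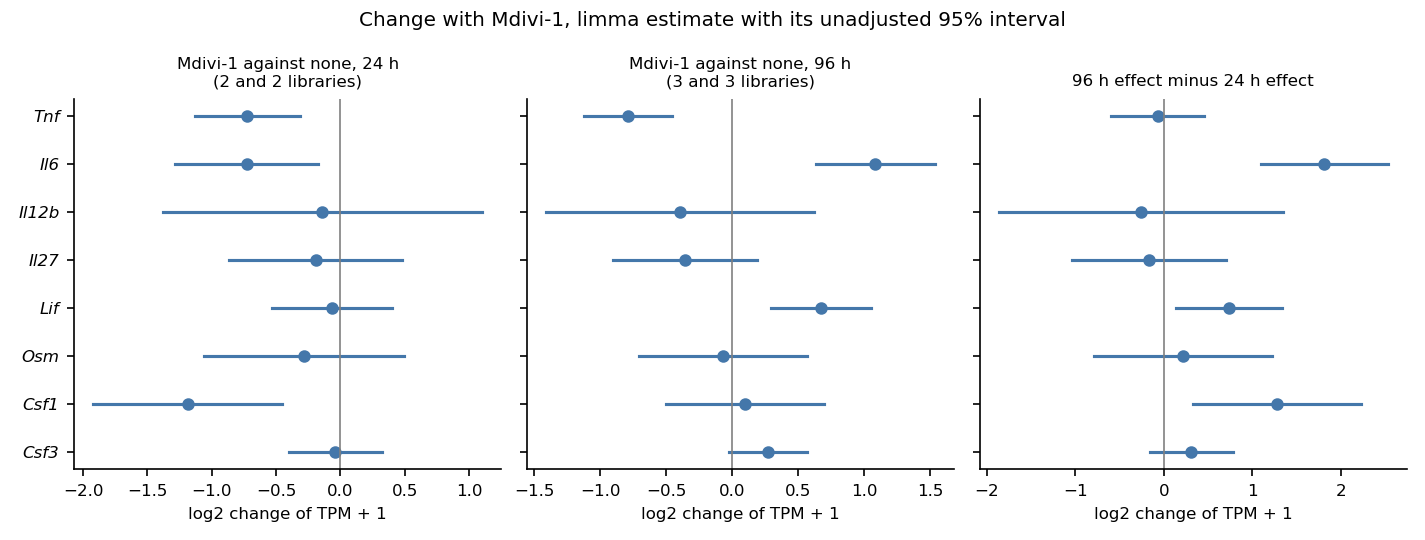
Difference with Mdivi-1 for the 8 tested cytokines at 24 h and 96 h, as log2 change with the unadjusted 95% interval of the limma fit. Il6 lies at -0.73 at 24 h and at 1.08 at 96 h, and Tnf at -0.72 and -0.79. No point passed the adjusted threshold.

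Ratios of a cytokine to Tnf within a library are the same under any scaling of the whole library, though not after background is subtracted. They were formed after the values had been seen. At 96 h the ratio of Il6 to Tnf was 0.185, 0.123 and 0.0878 without Mdivi-1 and 0.521, 0.487 and 0.664 with it. The means were 0.132 ± 0.0491 and 0.557 ± 0.0939 (SD, n = 3 each), a ratio 4.23 times as high, with an exact two-sided permutation p of 0.1, the smallest that 3 against 3 can give. The groups did not overlap. This followed from the levels given above, since Il6 was higher and Tnf lower in every 96 h library with Mdivi-1. The p is thus no further test. After the Olfr median of each library was subtracted from both genes, the ratio was 8.37 times as high. Without Mdivi-1 Il6 was at 1.60, 1.28 and 5.57 times the Olfr median of its library.

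The ratio of Lif to Tnf at 96 h was 0.245 ± 0.0434 without Mdivi-1 and 0.734 ± 0.102 with it, or 2.99 times as high. That of Csf3 to Tnf was 2.45 ± 0.220 and 5.28 ± 0.663, or 2.16 times as high. That of Il27 to Tnf was 1.20 ± 0.268 and 1.62 ± 0.0588, or 1.35 times as high. None of these ratios overlapped between the groups, and each had an exact permutation p of 0.1 (n = 3 each). For Lif, itself higher in every 96 h library with Mdivi-1, this too followed from the levels and is no further test. All of them share Tnf as the denominator, which was itself lower in every 96 h library with Mdivi-1, so they are not independent of each other. At 24 h the Il6 ratio went the other way, from 0.0134 ± 0.00136 to 0.00392 ± 0.000167 (n = 2 each, exact permutation p = 0.333, the smallest that 2 against 2 can give). The other 3 ratios were higher with Mdivi-1 at 24 h as at 96 h: 1.36 times for Il27, with no overlap (exact permutation p = 0.333, n = 2 each), 1.47 times for Lif (p = 0.667) and 1.16 times for Csf3 (p = 1).

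**Figure D3:**
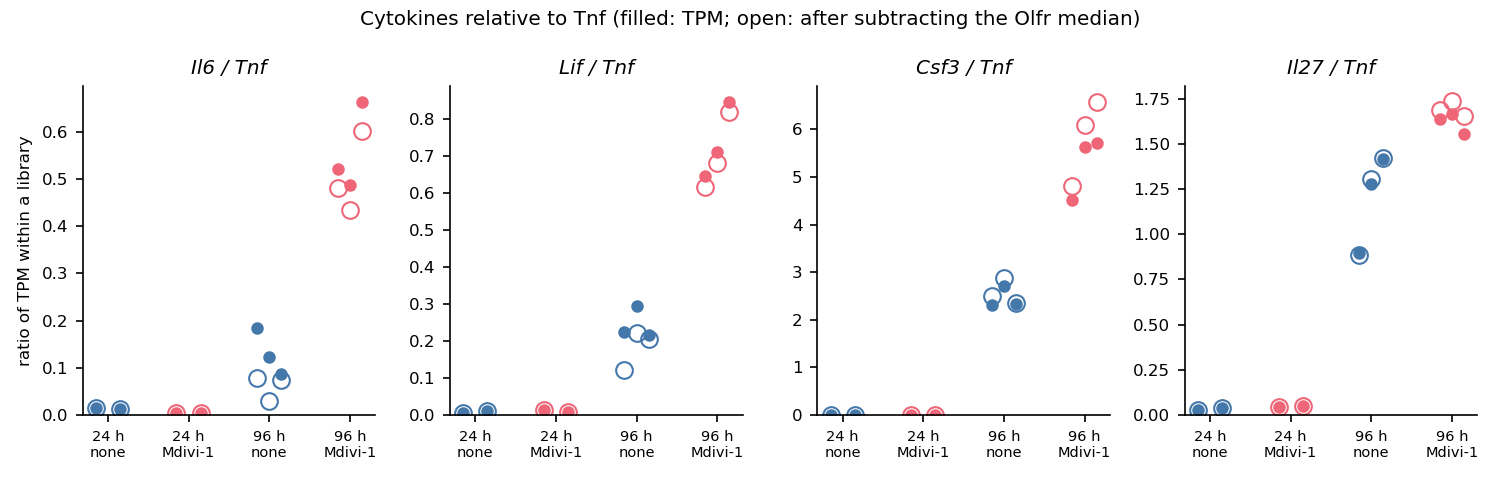
Ratio of Il6, Lif, Csf3 and Il27 to Tnf within each library at 24 h and 96 h, without and with Mdivi-1. The axis is linear. Filled points show TPM and open circles the ratio after the Olfr median was subtracted from both genes. At 96 h the libraries with Mdivi-1 lie above those without it for all 4 genes, with Il6 at 0.487 to 0.664 against 0.0878 to 0.185.

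Between 24 h and 96 h the order of the cytokines changed. At 24 h without Mdivi-1 it ran Tnf, Csf1, Osm, Il27 and Il6, with no overlap between neighbours among these, followed by Lif, Il10 and Il12b, whose ranges overlapped from neighbour to neighbour. The 96 h order was Csf3, Il27, Tnf, Lif and Il6. Il27 and Tnf overlapped at 96 h without Mdivi-1 (22.4 to 45.8 against 23.1 to 32.4 TPM), and did not with it (19.2 to 28.6 against 12.3 to 17.5 TPM). The ranges of the other 5 overlapped from neighbour to neighbour at 96 h, at or near the level of silent genes.

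In the test of 96 h against 24 h, 6 of the 8 tested cytokines passed without Mdivi-1 and the same 6 with it: Il6, Il27, Lif and Csf3 rose, and Tnf and Csf1 fell as shares of all transcripts. Over all genes 83.2% passed without Mdivi-1 (36.3% higher and 46.9% lower) and 79.4% with it (35.3% and 44%), so the count of 6 of 8 is near the background. The rises were 5.90 ± 0.15 without and 6.21 ± 0.15 with Mdivi-1 on the log2 scale for Csf3 (limma adjusted p = 5.98e-10 and 4.77e-10). They were 3.30 ± 0.28 and 3.13 ± 0.28 for Il27 (adjusted p = 1.37e-06 and 2.31e-06). For Lif they were 2.30 ± 0.19 and 3.03 ± 0.19 (adjusted p = 1.26e-06 and 1.65e-07), and for Il6 1.17 ± 0.23 and 2.99 ± 0.23 (adjusted p = 9.05e-04 and 7.18e-07). Of the 4 rises that of Il6 differed most between the cells with and without Mdivi-1, the interaction given above, which did not pass. Without Mdivi-1 the Olfr median was 0 TPM in both 24 h libraries tested and 2.88, 2.21 and 0.511 TPM at 96 h. In the first and second of these 96 h libraries the Il6 rise in TPM cannot be told from that of background. With the Olfr median subtracted and the rest rescaled, the Il6 rise without Mdivi-1 was 3.18 (limma adjusted p = 0.00188).

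Csf1 fell by 3.53 ± 0.30 without Mdivi-1 and by 2.25 ± 0.30 with it (limma adjusted p = 1.59e-06 and 6.52e-05). Tnf fell by 1.35 ± 0.17 and by 1.42 ± 0.17 in TPM (adjusted p = 3.13e-05 and 2.34e-05), but its direction turned under the other 3 scalings. The median change of all genes was -0.41 without and -0.12 with Mdivi-1 in TPM. It was 1.31 and 1.38 after median-of-ratios scaling, 2.25 and 2.42 when mitochondrial, structured and satellite-like RNA was left out and the rest rescaled, and 0.02 and 0.18 when the Olfr median was also subtracted. Under these 3 scalings Tnf was at 0.58, 0.97 and 1.66 without Mdivi-1 and at 0.21, 0.75 and 1.33 with it. Relative to the median of all genes Tnf was lower in TPM and under the first 2 of these scalings, and higher when the Olfr median was subtracted.

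Il6, Il27, Lif and Csf3 were higher at 96 h under all 4 scalings, from 1.17 for Il6 to 10.26 for Csf3, and above the median of all genes under each. Csf1 was lower under all 4, from -5.67 to -0.53, although with Mdivi-1 it no longer passed when the other RNA classes were left out (-0.53, adjusted p = 0.221). With all 12 libraries in the fit, 3 of 7 tested cytokines passed without Mdivi-1 (Il27, Lif and Csf3) and 4 with it. The macrophage markers moved too. All 9 tested fell in TPM, with a median change of -5.70 without and -5.72 with Mdivi-1. Under the other 3 scalings 6 or 7 of the 9 fell, where 8.68% to 24.9% of all genes were lower. With the Olfr median subtracted 1 of the 9 rose in the cells with Mdivi-1. The part of these markers in the changes of the cytokines was not tested.

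**Figure D4:**
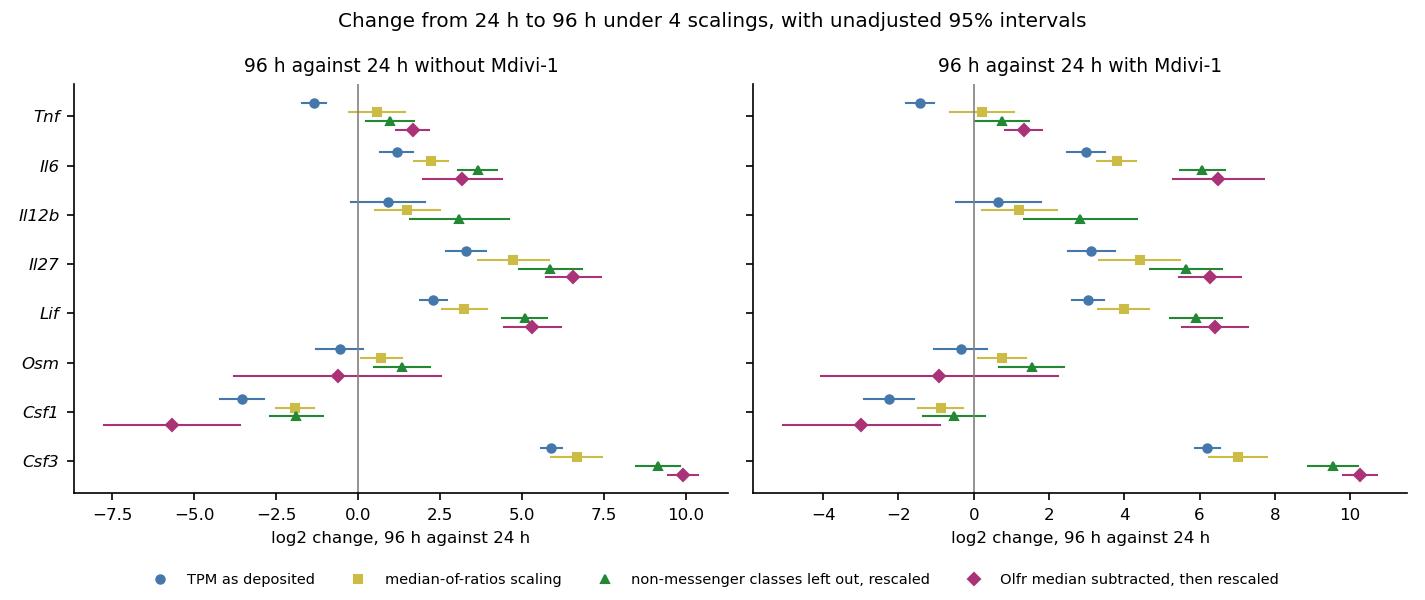
Change from 24 h to 96 h of the 8 tested cytokines without and with Mdivi-1, as log2 change with unadjusted 95% intervals, under 4 scalings of the libraries. Csf3, Il27, Lif and Il6 lie above 0 under each scaling and Csf1 below 0, while Tnf lies at -1.35 and -1.42 in TPM and above 0 under the other 3.

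Most receptors of these cytokines were lower at 96 h, the time at which Csf3, Il27, Lif and Il6 were higher. Of 16 receptor genes all 16 were above background at 24 h, and 3 at 96 h: Tnfrsf1b, which encodes TNF receptor type II, and the Csf2 receptor chains Csf2ra and Csf2rb. The cut was 0 TPM at 24 h and 1.31 to 7.01 TPM at 96 h, so these counts rest on unlike cuts. The share of all genes above them was not counted. Of 13 receptors tested, 11 fell in TPM from 24 h to 96 h both without and with Mdivi-1 (median change -3.81 and -3.44, against 46.9% and 44% of all genes lower), and 0 passed for Mdivi-1 at either time. The median stayed below 0 under the other 3 scalings, at -3.14 to -0.81, with 6 to 10 lower and 0 to 3 higher among 13 to 16 tested, where 8.68% to 24.9% of all genes were lower. Csf1r, the receptor of Csf1, went from 321 ± 13.5 TPM (SD, n = 2) at 24 h to 2.33 ± 0.558 TPM (n = 3) at 96 h without Mdivi-1. With it Csf1r went from 308 ± 13.3 to 1.82 ± 0.737 TPM. Csf2rb went from 170 ± 2.69 to 8.74 ± 0.667 TPM without Mdivi-1, and the shared chain Il6st from 15.6 ± 0.0385 to 2.49 ± 0.668 TPM. Csf1r and Csf2rb fell under all 4 scalings, and Il6st in TPM and with median-of-ratios scaling (-0.59 without and -0.49 with Mdivi-1). Il6st was at -0.31 and -0.04 with rescaling and at -1.83 (limma adjusted p = 0.0570) and -0.43 with the Olfr median subtracted, which did not pass. Tnfrsf1b, named after its values were seen, remained the highest receptor at 96 h, at 45.8 to 68.0 TPM without and 40.1 to 56.7 TPM with Mdivi-1, and its direction over time turned from -2.92 in TPM to 0.17 with the Olfr median subtracted. Csf2rb and its near-identical copy Csf2rb2 may share reads, so their separate levels are uncertain.

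**Figure D5:**
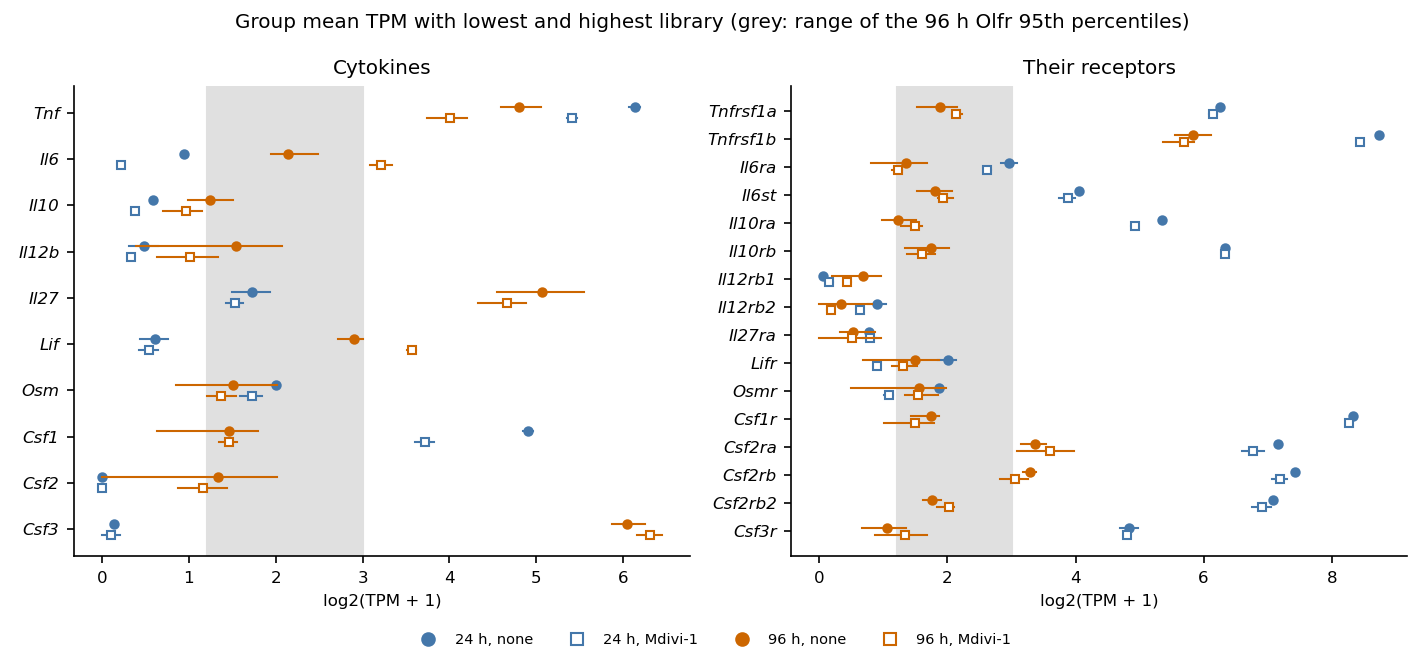
Group means of the 10 cytokines (left) and their 16 receptor genes (right) as log2(TPM + 1), with the lowest and highest library as a line and the range of the 96 h Olfr 95th percentiles in grey. At 96 h 3 receptors lie above the background in every library, against 16 at 24 h, where the cut was 0 TPM. Csf3 goes from 0.103 to 65.1 TPM without Mdivi-1.

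The other genes of these pathways were counted in the same way, against the same backgrounds. For the effect of Mdivi-1 at 24 h, at 96 h and in the difference, 0 passed among 5 tested partner subunits and related ligands, 9 Jak and Stat genes, 12 feedback genes such as the Socs inhibitors, 12 genes of messenger decay or cytokine release, and 18 transcription factors of these genes. With the Olfr median subtracted 1 of the 18, Jun, named for this call, was higher at 96 h with Mdivi-1, where 0.447% of all genes were higher. Between 24 h and 96 h without Mdivi-1, all 9 Jak and Stat genes, all 12 decay and release genes and all 18 transcription factors fell in TPM. With Mdivi-1 9, 10 and 14 of them did. Of all genes 46.9% and 44% were lower in TPM. Of the 12 feedback genes 1 rose and 9 fell at both. Of the 5 partner subunits and ligands 1 rose and 1 fell without Mdivi-1, and 2 rose and 1 fell with it. These directions rest on the scaling. With the other RNA classes left out and the rest rescaled, the median change without Mdivi-1 was -0.37 for the Jak and Stat genes, -0.22 for the transcription factors, 0.52 for decay and release and 1.02 for feedback, where 7 of 13 rose and 0 fell. Under that scaling 54.6% of all genes were higher and 8.69% lower, and 1 of 10 Jak and Stat genes rose and 3 fell. Of the 18 transcription factors 6 rose and 7 fell, and of the 12 decay and release genes 3 rose and 2 fell. All 4 medians were below the 2.25 of all genes under that scaling. With the Olfr median subtracted as well they were -0.76, -0.83, 0.51 and 0.66, against 0.02 over all genes, of which 16.4% were higher and 24.1% lower.

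The 3′ untranslated regions of the 10 cytokines were searched for AU-rich elements in the transcripts of GENCODE M21, with the longest region of each gene. The pentamer ATTTA was present 4 to 10 times in each of the 10, against 1 copy at the median of 21020 mouse genes, of which 65.2% held it. These counts grow with the length of the region. Per kb the pentamer was present 1.89 times in Csf1, 2.2 times in Lif and up to 28.4 times in Csf2, against a median of 1.35. The longer TTATTTATT was present in 4 of the 10 and in 7.66% of all genes. One stretch of 30 bases is shown for each of the 4, since these are the sequences by which such messengers are recognised for decay, with capitals for the overlapping TTATTTATT copies. The untranslated region of Tnf holds 5 copies in all, that of Csf2 4, and those of Il27 and Lif 2 each.
Tnf: taTTATTTATTATTTATTTATTATTTATTt
Csf2: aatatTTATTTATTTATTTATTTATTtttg
Il27: ttcttggatatTTATTTATTtttaagaaat
Lif: caaaggggcctTTATTTATTatttaaaact
The stretches begin at bases 436, 236, 188 and 2704 of regions of 764, 317, 285 and 3180 bases. The 4 genes did not share a time course: Il27 and Lif rose, Tnf fell in TPM and not under the other scalings, and Csf2 was listed at 0 at 24 h. Csf3 and Il6, which rose as well, held no TTATTTATT.

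Genes with the most similar pattern over the 10 libraries were ranked by the root mean square difference of centred log2(TPM + 1) among 5251 genes with a mean of at least 5 TPM (5252 for Il6). For Tnf these were Samd1 and Cggbp1 (0.18 each), for Il6 Phlda1 (0.43) and the cytokine Il1a (0.44), and for Il27 the chemokines Cxcl11 (0.15) and Ccl22 (0.25). For Lif they were Il1a (0.25) and the class I histocompatibility gene H2-Q10 (0.28). For Csf1 they were the secreted protein gene Fstl1 (0.21) and the activin subunit Inhba (0.22), and for Csf3 the interferon-inducible Ifi202b (0.26) and the ribosomal pseudogene Rpl36-ps3 (0.33). Il1a was at 79.0 to 86.9 TPM at 24 h without Mdivi-1 and at 48.5 to 48.8 TPM with it. At 96 h it was at 281 to 409 TPM and at 484 to 568 TPM, so that it was lower with Mdivi-1 at 24 h and higher at 96 h, as Il6 was. Il1a was picked for its likeness in these same libraries, so the shared order is no further result. The 10 libraries share the change of composition between the times, which enters each of these distances.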

How the data were processed

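Values are TPM as deposited by the authors in 1 table of 49585 genes and 12 libraries. Each library sums to 1000000, so sequencing depth is unknown. Per the labels' protocols, 100 ng of total RNA went into each library, after ribosomal RNA depletion, with a directional kit. Neither the aligner nor the counter nor the annotation is given in the sources available for this work. The submitters' processing notes name hg19, a human build, but 49326 identifiers (99.5%) were found in mouse GENCODE M21, so no coordinate of the study's own is given. Of the value columns, 0 were unmapped.

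Genes with a mean of at least 1 TPM over 10 libraries (all but the 24 h libraries numbered 3) were tested as log2(TPM + 1), computed from the deposited TPM, with the trend option of limma 3.58.1 under R 4.3.3, as a single model of the 4 groups with 6 residual degrees of freedom. P-values were adjusted by Benjamini-Hochberg over 19631 genes, with 0.05 as the threshold for a call. Changes on this scale understate those of genes near 1 TPM. Intervals are 95% and not adjusted. The script was tested on simulated data. In these 10 libraries no pairing by replicate number was seen. With all 12 the same-numbered 24 h libraries correlated at 0.960 to 0.980, as both libraries numbered 3 share their composition.

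The 10 cytokines, gene lists, tests and the choice of libraries were made with earlier results of these data known. Genes named besides the 10 are those of the lists called for Mdivi-1, 5 partners and receptors (Ebi3, Il12a, Il6st, Csf1r, Csf2rb), and the 2 genes of most similar pattern for each cytokine that reached 5 TPM in a group. Adgre1, Tnfrsf1b, Csf2ra, Csf2rb2 and Jun were named after their values were seen. Satellite-like genes (13) share at least 10% of their words of 12 bases with 2 satellite transcripts. Alternatives changed the pseudocount, filter, scaling, background, libraries and block. Descriptions and plots used Python 3.11.15, pandas 2.3.3, scipy 1.17.1 and matplotlib 3.10.9.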

Additional observations from a re-analysis of the deposited data

Results flagged for a closer look

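Il6 moved in opposite directions with Mdivi-1 at the 2 times: both 24 h libraries with Mdivi-1 were below both without it, and all 3 of the 96 h libraries with Mdivi-1 were above all 3 without it. Of all genes tested, 40.4% were lower in this sense at 24 h and 2.13% higher at 96 h, so the 24 h order is common in these data. The difference between the effects was 1.81 ± 0.32 on the log2(TPM + 1) scale and missed the threshold (limma, Benjamini-Hochberg adjusted p = 0.0977). At 24 h both levels were under 1 TPM, and at 96 h the level without Mdivi-1 was under the Olfr 95th percentile in 2 of 3 libraries.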

How the results depend on the processing

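Of the values for single cytokines under all alternatives, 719 kept their direction and side of the threshold, 25 passed only there, 4 no longer passed and 33 changed sign. Sequencing depth is unknown, and levels under a few TPM at 96 h cannot be told from background. The cause of the changes below was not tested.

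At 24 h 0 cytokines were called for Mdivi-1. This became 2 (Tnf and Csf1) of 4 tested with the libraries of 1 time alone, and 1 of 8 with a pseudocount of 5. It became 3 (Tnf, Il6 and Csf1) of 6 with 1 time alone after rescaling, with or without background subtraction. These last alternatives were chosen after seeing the data. The count of all genes called at 24 h, 58 in the fit of 10 libraries, moved as well. The share of all genes is not given for each setting, so these counts are no result about the cytokines. In the difference between the times 1 (Il6) was called with a pseudocount of 0.1 and 1 with 5. Leaving out 1 library gave 0 to 1 calls at 24 h, 0 to 3 at 96 h, 0 to 1 in the difference and 6 to 7 for either time contrast. For time without Mdivi-1 the count of 6 of 8 tested became 3 of 7 with all 12 libraries and 10 of 10 with the rescaling. Under that rescaling 54.6% of all genes were higher and 8.69% lower. The count of all genes called ranged from 0 to 2424 at 24 h, from 0 to 164 at 96 h and from 0 to 148 in the difference, and with 1 library left out from 0 to 356, 4 to 806 and 0 to 84.

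For the change over time, Tnf turned to 0.61 without and 0.26 with Mdivi-1 with all 12 libraries, to 0.58 and 0.21 with median-of-ratios scaling, to 0.97 and 0.75 with rescaling, and to 1.66 and 1.33 with background subtraction. Osm turned to 0.71 and 0.75 with median-of-ratios scaling, to 1.34 and 1.54 with rescaling, and with Mdivi-1 to 0.16 with all 12 libraries. For Mdivi-1 at 24 h, median-of-ratios scaling gave 0.034 for Il27 and 0.024 for Lif. With 1 library left out this effect ran from -0.41 to 0.029 for Il27, from -0.23 to 0.096 for Lif, from -0.31 to 0.027 for Il12b and from -0.14 to 0.060 for Csf3. At 96 h Osm turned to 0.019 with median-of-ratios scaling and to 0.021 with rescaling, of all libraries or of 1 time alone. With 1 library left out Osm ran from -0.36 to 0.22 and Csf1 from -0.27 to 0.31, with the lowest Csf1 value lacking library 3 without Mdivi-1. The difference between the times turned to 0.011 for Tnf with a pseudocount of 5 and to -0.29 for Osm with background subtraction. With 1 library left out it ran from -0.18 to 0.071 for Tnf, from -0.40 to 0.10 for Il27 and from -0.077 to 0.50 for Osm.

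With the replicate number as a block, 0 cytokines were called for Mdivi-1 at 24 h, 0 at 96 h and 0 in the difference, and 6 in either time contrast. Over all genes the block gave 1 call at 24 h, 3 at 96 h and 4 in the difference. Deviations of same-numbered libraries correlated at -0.023 at 24 h and at -0.11, -0.021 and -0.24 at 96 h. No pairing by number was thus seen in the values of these 10 libraries. The labels do not say whether same-numbered libraries shared a culture or a day. With all 12 libraries the 24 h correlations were 0.968, 0.960 and 0.980. There the block, an alternative chosen after seeing the data, called 0 of 7 cytokines at 24 h, at 96 h and in the difference, and 0, 2 and 1 of all genes.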
